A study of Mus musculus with 63 samples.

Results

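The response of mouse small intestinal organoids to deletion of Cdk8 was compared between a line that carries a kinase-dead CDK19 protein and a line that carries no CDK19, 7 days after the deletion was induced. The members are 12 of the 63 RNA-Seq libraries of the series, chosen by genotype and day from the labels, in 4 groups of 3. Organoids of the kinase-dead line were VillinCreERT2, Cdk8 fl/fl and Cdk19 ko/D173A, and those of the null line VillinCreERT2, Cdk8 fl/fl and Cdk19 ko/ko, all of strain C57BL/6. D173A names the amino acid change of the kinase-dead allele, which lies opposite a knockout allele. Each line received a pulse of 100 nM 4-hydroxytamoxifen (4-OHT), which activates the Cre recombinase under the Villin promoter of gut epithelium, or ethanol vehicle (EtOH), in medium with EGF, Noggin and R-spondin. Both EtOH groups keep Cdk8 and lack normal CDK19, so each response is the step from CDK8 as the only active Mediator kinase to none, with or without an inactive CDK19 protein. For every gene, the kinase-dead response is the log2 fold change of 4-OHT over EtOH in the kinase-dead line and the null response is the same in the null line. The response difference is the kinase-dead response minus the null response, so that a positive value is a larger rise or a smaller fall in the kinase-dead line.

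CDK8 and its paralog CDK19 are the alternative kinases of the Mediator kinase module, in which cyclin C, MED12 and MED13 bind the kinase and attach it reversibly to Mediator, the bridge between transcription factors and RNA polymerase II. A kinase-dead protein can still occupy this module, whereas a null allele leaves the position empty, so the comparison addresses what the protein does apart from phosphorylation. Small intestinal organoids grow from stem cells into a crypt-like epithelium of Paneth, goblet, tuft and enteroendocrine cells and absorptive enterocytes, and Paneth cells supply the stem cells with the ligand WNT3.

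Total counts ranged from 25250188 to 32909565 in the kinase-dead libraries and from 19879016 to 20771513 in the null libraries. Each genotype is 1 organoid line here. The 12 libraries came from 2 deposited tables, the kinase-dead columns from one and the null columns from the other. The table of the kinase-dead line also holds columns with the line number of the null line and the letter W, which were not used here. Genotype, line, table and depth cannot be told apart among the 12 libraries, although differences that add equally to both arms of a line cancel in the response difference. No 4-OHT group without the floxed allele is among the 12, so deletion of Cdk8 and the effect of 4-OHT and Cre themselves cannot be told apart within a line. The labels do not say whether the replicates are separate cultures or animals, and p-values then measure only the spread between these samples, which may be technical. The lines differed in the sex-linked transcripts Xist (369.7 to 642 CPM, counts scaled to the library total, in the kinase-dead line and at most 0.504 CPM in the null line) and Ddx3y (at most 0.122 CPM against 25.5 to 32.4 CPM). Within the kinase-dead line Xist read 498, 642 and 636 CPM with EtOH and 376, 461 and 369.7 CPM with 4-OHT, a log2 fold change of -0.56 under the fold cutoff, and Uty, on the Y chromosome, was called higher on 0 counts with EtOH and 8 with 4-OHT. All 14 epithelial markers passed the filter on low counts, against 3 of 14 mesenchymal and 5 of 16 immune markers. Null EtOH replicate 2 stood apart with 25.5 CPM of Col1a1, a mesenchymal collagen, against at most 0.852 CPM in the other 11 libraries, and results that rest on it are given with and without it. Replicate 1 of each kinase-dead arm, numbered by column name, was farther from the other 2 libraries of its group than these were from each other. The chi-square of the counts over its degrees of freedom was 19.1 and 16.8 against 2.72 with EtOH and 22.0 and 29.2 against 11.3 with 4-OHT, and 8.02 to 16.5 within the null groups. With 1 of them left out, the response difference was called in 1855 (EtOH library out) or 1513 (4-OHT library out) genes, against 1743 with all 12. Between the EtOH groups, 16.2% of the 15636 genes tested were called higher and 15.2% lower in the kinase-dead line, which is used only as the starting level.

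The counts cover whole genes, and a transcript that lacks an exon still counts, so the targeted genes do not check the genotypes. Cdk8 (ENSMUSG00000029635.15, GRCm38 chromosome 5, 146231230 to 146302874) read 69.5, 65.1 and 62.3 CPM with EtOH and 68.5, 67.1 and 62.8 CPM with 4-OHT in the kinase-dead line. It read 48.4, 46.3 and 48.7 CPM with EtOH and 44.7, 41.9 and 45.6 CPM with 4-OHT in the null line. The arms overlapped in the kinase-dead line (log2 fold change of 0.01) and lay close together without overlap in the null line (-0.12), with adjusted p-values of 0.921 and 0.213 in edgeR's quasi-likelihood test. Cdk19 (ENSMUSG00000038481.13, chromosome 10, 40339564 to 40483818) read 29.9, 28.0 and 29.1 CPM with EtOH and 26.9, 24.4 and 23.9 CPM with 4-OHT in the kinase-dead line. In the null line it read 38.0, 38.4 and 38.5 CPM with EtOH and 44.8, 47.6 and 48.5 CPM with 4-OHT. The transcript of Cdk19 was thus lower with 4-OHT in the one line and higher in the other, and its response difference of -0.50 (standard error 0.10, edgeR quasi-likelihood test, Benjamini-Hochberg adjusted p = 0.00284) stayed under the fold cutoff. The 6 measured genes of the kinase module include Ccnc, which encodes cyclin C, Med12 and Med13. None was called in edgeR, DESeq2 or limma-voom, and at an unadjusted p under 0.05 there were 1 in the kinase-dead response, 3 in the null response and 2 in the difference. Over all 15636 genes tested, 5189 were under that p in the difference. In the kinase-dead and null responses 4342 and 6060 of all genes were under 0.05 even after adjustment.

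Calls were made in edgeR's quasi-likelihood test and needed a fold over 1.5 besides a Benjamini-Hochberg adjusted p under 0.05. The kinase-dead response held 955 genes called higher (6.11% of those tested) and 987 lower (6.31%), and the null response 1324 higher (8.47%) and 1326 lower (8.48%). The response difference itself was called in 1743 genes, 766 higher (4.9%) and 977 lower (6.25%) in the kinase-dead line. Called in both responses with the same sign were 566 genes, which are 29.1% of the kinase-dead calls and 21.4% of the null calls. Of these, 505 (251 rises and 254 falls) were not called in the difference, and the other 61 moved the same way by different amounts. For 142 of the 566 the 95% interval of the difference lay within 1.5-fold either way. Opposite movement was called in 96 genes, 47 of which rose in the kinase-dead line. A further 473 genes were called in the kinase-dead response alone and in the difference, and 797 in the null response alone and in the difference. In the other 316 genes the difference was called although neither response was. For 1998 genes called in 1 response alone, the difference was not called, which does not show that the lines responded alike.

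The lines share no library, so the calls of one can be read in the other. The 955 genes that rose in the kinase-dead line, by a median of 1.17 on the log2 scale, had a median of 0.42 in the null line, where 69.1% were above 0 against 49.2% of all genes tested. The 987 that fell in the kinase-dead line had a median of -0.93 there and of -0.33 in the null line, where 70.9% were below 0 against 50.1%. Of the null rises and falls, 73.3% and 81.8% had the same sign in the kinase-dead line, against 50.6% and 49.4% of all genes. Over all 15636 genes the correlation of the responses was r = 0.232, a value across genes and not across independent replicates.

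**Figure D1:**
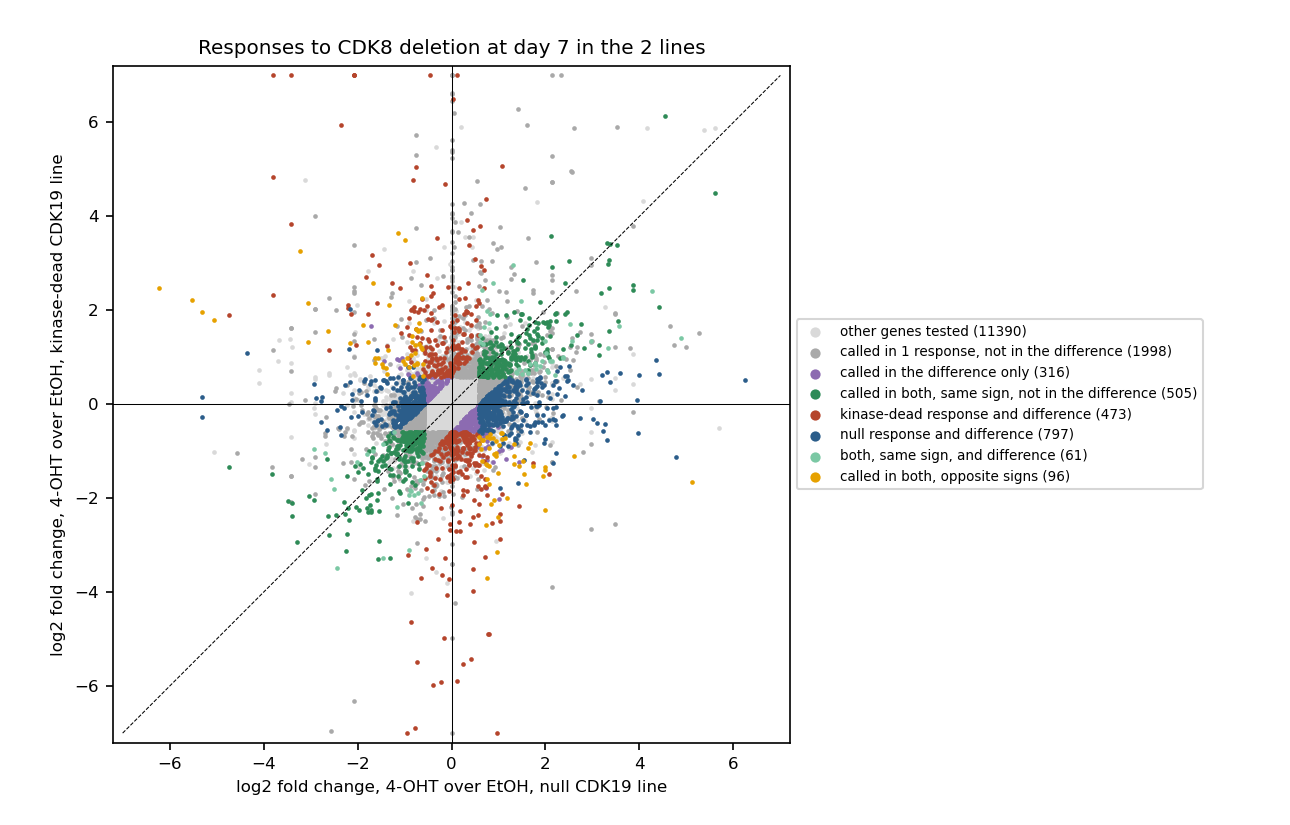
Log2 fold change of 4-OHT over EtOH at day 7 in the kinase-dead line (vertical axis) against that in the null line (horizontal axis) for the 15636 genes tested, each point a gene coloured by the class of its call. The 505 genes called in both and not in the difference lie about the diagonal, the 96 of opposite sign lie in the upper left and lower right quadrants, and 16 genes beyond the axis limit of 7 are drawn at the edge.

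Tuft cell genes fell in both lines. Tuft cells are chemosensory cells that use taste-type signalling. Of 16 measured tuft genes, 15 fell in the kinase-dead line and 10 in the null line, with median log2 fold changes of -1.81 and -1.88 against 0.00 for all genes in either line and falls in 6.31% and 8.48% of these. Called differences were 1 higher (Nrep, 0.98) and 1 lower (Hmx2, -1.76), near the 4.9% and 6.25% of all genes, and the higher call was lost with limma-voom and in 8 of 12 fits without 1 library. In bulk RNA, fewer cells of a type and less RNA per cell cannot be told apart. Rgs13, a regulator of G protein signalling, fell from 7.23, 5.55 and 5.76 to 0.784, 0.868 and 0.771 CPM in the kinase-dead line and from 1.72, 1.87 and 2.56 to 0.370, 0.101 and 0.153 CPM in the null line. The arms did not overlap in either line, and the log2 fold changes of -2.92 and -3.28 differed by 0.36 (95% interval -0.60 to 1.32). Pou2f3, the transcription factor that specifies tuft cells, fell from 6.30, 6.04 and 6.36 to 1.30, 1.27 and 1.5 CPM in the kinase-dead line and from 6.34, 4.75 and 3.50 to 1.43, 1.71 and 1.02 CPM in the null line, again without overlap. Spib, an ETS transcription factor, had log2 fold changes of -2.37 and -2.45, and Plcb2, the phospholipase of taste signalling, of -2.20 and -2.21. Krtap3-1 and Prl2c3, and the tuft cell genes Sh2d7, Sh2d6 and Cd300lf, were also among the 8 largest shared falls. The latter 3 had log2 fold changes of -2.79, -2.08 and -2.77 in the kinase-dead line and of -2.61, -2.28 and -2.23 in the null line. Dclk1, a kinase that marks tuft cells, fell in the kinase-dead line from 15.8, 14.5 and 15.6 to 3.34, 4.12 and 3.37 CPM but had 3 counts in all in null EtOH and 0 in null 4-OHT, so its null response cannot be read. The summed tuft level was 85.7 to 95.5 CPM in kinase-dead EtOH and 29.8 to 38.0 CPM in null EtOH libraries, so the kinase-dead line started higher.

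Paneth cell genes fell in both lines as well. Paneth cells secrete antimicrobial proteins at the crypt base. Of 18 measured, 14 fell in each line and 12 in both, against falls in 6.31% and 8.48% of all genes, with medians of -1.09 and -1.10. Called differences were 2 higher and 4 lower, where 4.9% and 6.25% of all genes were called. Itln1, a lectin, fell from 1033, 1020.2 and 1068 to 370.4, 372 and 427 CPM in the kinase-dead line and from 888, 759 and 831 to 273, 278 and 287 CPM in the null line. These falls were of like size, with a difference of 0.15 and a 95% interval of -0.07 to 0.37. The defensin gene Defa26 had log2 fold changes of -1.6 and -1.59, although reads of this family can be split between near-identical copies. The lysozyme of Paneth cells, Lyz1, went the other way in the kinase-dead line, where it rose from 513, 439 and 403 to 844, 765 and 898 CPM. Lyz1 fell from 3711, 3032 and 3438 to 1051, 1069 and 1186 CPM in the null line. The 4-OHT groups thus lay nearer to each other than the EtOH groups, and the difference was 2.51 (standard error 0.14, edgeR adjusted p = 1.07e-08). Ang4, an antimicrobial ribonuclease, fell in both lines but further in the kinase-dead line, from 242, 224 and 218 to 46.1, 46.9 and 58.1 CPM against 293, 201 and 283 to 115, 117 and 116 CPM, a difference of -1.02 (edgeR adjusted p = 0.0011) that was not called with the null response of day 10 in place of day 7 (-0.076, edgeR adjusted p = 0.745). Mmp7, which activates defensins, and Habp2 had differences of -1.03 and -1.14 in the same direction, and Pla2g2a, a secreted phospholipase, of 0.70 in the other. The list's count of higher differences was 1 with limma-voom and with upper quartile normalization, and 1 or 2 without any 1 library. Lyz1 was called in each of 12 fits without 1 library, so Pla2g2a was the call lost in those fits where the count was 1. With the null response of day 5 the difference of Pla2g2a was 0.107 (edgeR adjusted p = 0.818). Rnase1, a secreted ribonuclease, fell in the kinase-dead line with a log2 fold change of -1.06 and had 0.11 in the null line.

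Wnt3 fell by like amounts in both lines. It went from 6.54, 6.30 and 6.65 to 2.32, 1.92 and 1.99 CPM in the kinase-dead line and from 14.4, 11.4 and 13.4 to 3.76, 4.08 and 5.27 CPM in the null line. The log2 fold changes were -1.64 and -1.58 (edgeR adjusted p of 1.43e-06 and 1.62e-06), and their difference of -0.06 had a 95% interval of -0.53 to 0.41, within 1.5-fold either way. Among 44 measured Wnt pathway genes, 15 fell and 4 rose in the kinase-dead line and 13 fell and 3 rose in the null line. Over all genes 6.31% fell and 6.11% rose in the former and 8.48% and 8.47% in the latter, so the share of rises among Wnt genes was near that of all genes. Transcripts that Wnt signalling induces were among the falls of both lines. Axin2, a feedback inhibitor, had log2 fold changes of -1.09 and -1.38, and Myc of -0.74 and -0.91. The difference was called higher in 2 of these genes (Sp5 and Nkd1) and lower in 5 (Ephb2, Lgr5, Apcdd1, Lrp5 and Porcn), against 4.9% and 6.25% of all genes. Sp5, a Wnt-induced repressor chosen after its values were seen, was the 1 member called in opposite directions, with 7 counts over the kinase-dead EtOH libraries and 78 with 4-OHT, against 73 and 35 in the null line.

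Of 20 stem cell genes, 12 fell in each line and 9 in both, against falls in 6.31% and 8.48% of all genes, with medians of -0.65 and -0.72. Lgr5, the R-spondin receptor of stem cells, fell from 37.2, 57.4 and 50.7 to 12.9, 13.7 and 12.7 CPM in the kinase-dead line and from 123, 132 and 164 to 66.4, 86.1 and 101 CPM in the null line. The fall was larger in the kinase-dead line, with a difference of -1.17 (standard error 0.25, edgeR adjusted p = 0.00822), but it was not called with the null response of day 10 in place of day 7 (-0.49, edgeR adjusted p = 0.0707). Olfm4, a crypt base gene, leaned the other way, with log2 fold changes of -1.00 and -1.67 and a difference of 0.67 (edgeR adjusted p = 0.0433), a call that held in 2 of 12 fits without 1 library. Ascl2, a stem cell transcription factor, and Msi1, an RNA-binding protein, fell in both lines, with log2 fold changes of -1.23 and -0.70 in the kinase-dead line and of -1.72 and -1.24 in the null line. Hopx, a marker of reserve stem cells, fell from 31.8, 31.8 and 27.8 to 17.2, 14.8 and 16.0 CPM and from 35.5, 31.1 and 35.3 to 14.4, 14.6 and 17.4 CPM, a difference of 0.21 within 1.5-fold. The starting levels differed, with 12 of the 20 stem cell genes lower in kinase-dead than in null EtOH organoids, against 15.2% of all genes.

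The factors that specify secretory cells did not all follow. Atoh1, the master factor of secretory fate, fell in the null line from 30.9, 32.8 and 31.3 to 15.5, 18.0 and 16.9 CPM. In the kinase-dead line it read 23.8, 23.6 and 22.1 CPM with EtOH and 23.3, 17.0 and 19.7 CPM with 4-OHT. The difference was 0.70 (standard error 0.15, edgeR adjusted p = 0.00384), and the call was lost in 1 of 12 fits without 1 library (without kinase-dead 4-OHT replicate 1, 0.57) and with the null response of day 5 in place of day 7 (0.57). Bhlha15, which matures secretory cells, fell in both lines, with log2 fold changes of -2.14 and -1.74. Neurog3, which specifies enteroendocrine cells, fell in the kinase-dead line from 6.75, 7.28 and 8.51 to 3.07, 2.11 and 2.60 CPM. Null libraries of Neurog3 read 10.7, 12.1 and 14.3 CPM with EtOH and 12.9, 11.9 and 12.4 CPM with 4-OHT, so the arms overlapped there, and the difference was -1.54 (edgeR adjusted p = 0.000177). Hes1, the Notch target that opposes secretory fate, had log2 fold changes of 0.06 and 0.40 and was called in neither. Among 16 goblet cell genes, 5 fell and 2 rose in the kinase-dead line and 4 fell and 1 rose in the null line, with medians of -0.50 and -0.45. Over all genes 6.31% fell and 6.11% rose in the former and 8.48% and 8.47% in the latter. Called differences were higher in 4 (Atoh1, Clca1, Ccl6 and Zg16) and lower in 0, against 4.9% and 6.25% of all genes, while the median difference of the list was -0.18. Zg16, a mucus lectin, rose from 264, 247 and 246 to 634, 617 and 676 CPM in the kinase-dead line and read 147, 124 and 113 CPM with EtOH and 111, 79.9 and 83.1 CPM with 4-OHT in the null line.

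Enteroendocrine genes could be compared only in part. Their summed level was 1053 to 1117 CPM in kinase-dead EtOH and 104 to 130.3 CPM in null EtOH libraries. Of 26 genes, 12 had at most 3 counts over the libraries of each arm of the null line. In the kinase-dead line 12 fell and 7 rose, against 6.31% and 6.11% of all genes. Tph1, the enzyme of serotonin synthesis, fell from 40.5, 47.7 and 43.7 to 14.0, 13.7 and 14.3 CPM. Chga, a granule protein, and Ghrl, which encodes ghrelin, fell with log2 fold changes of -1.10 and -1.82. The rises were of peptide hormones of other subtypes and of granins. Nts, which encodes neurotensin, rose from 4.58, 3.79 and 5.00 to 23.5, 21.9 and 23.5 CPM, and Gip from 19.5, 19.9 and 18.0 to 49.4, 61.8 and 64.5 CPM, both without overlap between arms. Secretin (Sct), the glucagon precursor (Gcg) and somatostatin (Sst) had log2 fold changes of 1.37, 1.22 and 3.21, and Scg2 and Scg3 were the other rises. The called difference of Tph1 sets its fall against a step from 0 to 10 counts over the null libraries, at least 3.52-fold higher, so no comparison of size is drawn from it. Chga was the other member called in opposite directions, on 2 counts over the null EtOH libraries and 13 with 4-OHT, and the same limit holds. The difference was called lower in 8 of the 26 genes (Fev, Chgb, Insm1, Pax4, Ghrl, Tph1, Neurog3 and Chga) and higher in 1 (Sct), against 6.25% and 4.9% of all genes. Among these, Neurog3, the transcription factor that specifies enteroendocrine cells, had 688 counts over the kinase-dead EtOH libraries and 222 with 4-OHT, against 760 and 723 in the null line, and a difference of -1.54 (95% interval -2.00 to -1.09). With the null response of day 10 in place of day 7 the list's difference was called lower in 1 and higher in 4, and with that of day 5 in 6 and 3.

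**Figure D2:**
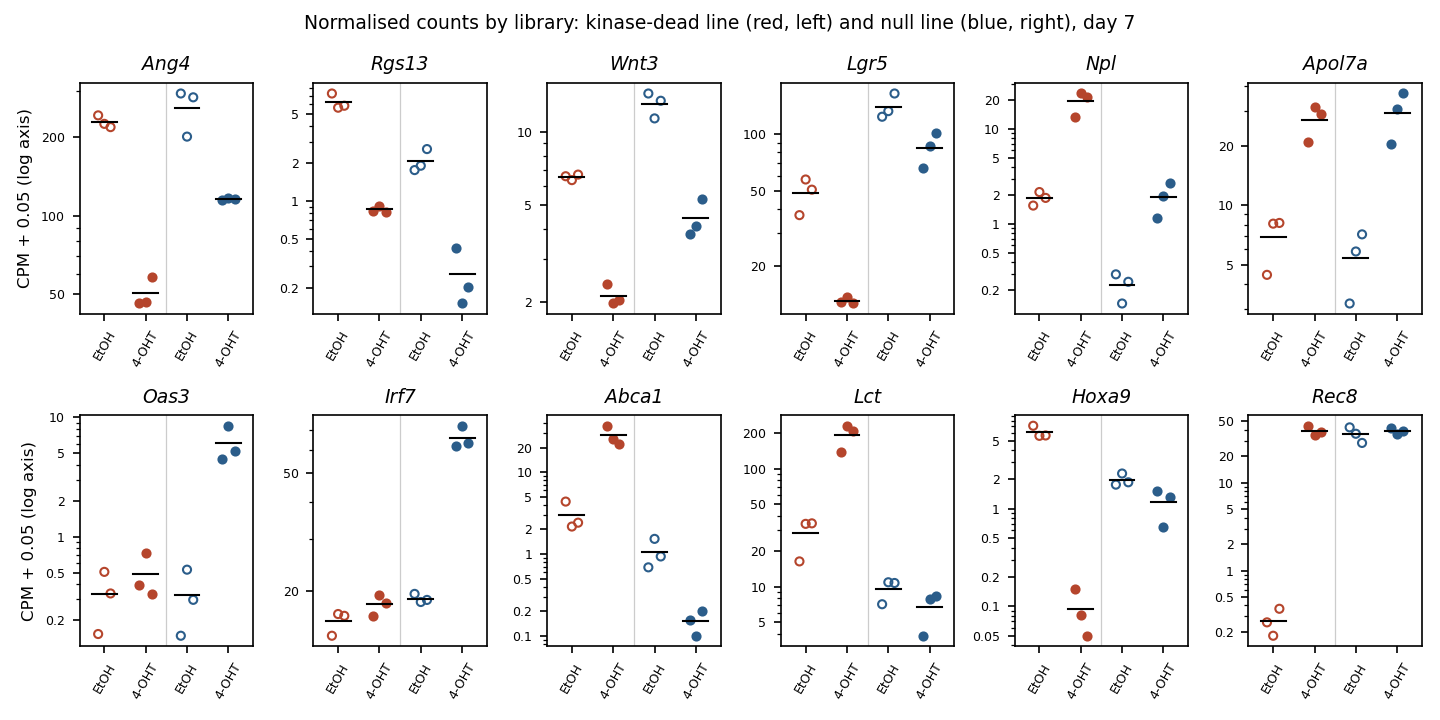
CPM plus 0.05 on log axes of 12 genes in each of the 12 libraries, with EtOH as open and 4-OHT as filled points, the kinase-dead line in red on the left, the null line in blue on the right and a bar at each group mean. Ang4, Rgs13, Wnt3 and Lgr5 are lower and Npl and Apol7a higher with 4-OHT in both lines, Oas3 and Irf7 are higher in null 4-OHT than in the other groups, and Abca1, Lct, Hoxa9 and Rec8 change in the kinase-dead line in another way than in the null line.

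The 8 largest shared rises were of genes with varied roles. Npl, which breaks down sialic acid, rose from 1.52, 2.12 and 1.84 to 13.3, 23.6 and 21.8 CPM in the kinase-dead line and from 0.246, 0.0959 and 0.197 to 1.11, 1.91 and 2.66 CPM in the null line, with log2 fold changes of 3.42 and 3.37. Apol7a, an apolipoprotein L gene, rose from 4.41, 8.03 and 8.10 to 20.7, 31.2 and 28.8 CPM and from 3.15, 5.80 and 7.09 to 20.4, 30.5 and 36.7 CPM. The arms did not overlap for either gene in either line. Cyp2j5, a cytochrome P450 that acts on arachidonic acid, had log2 fold changes of 3.06 and 3.36, Chrna4, a nicotinic receptor subunit, of 2.43 and 3.87, and Fyb2 of 2.58 and 2.42. Adgrd1, an adhesion G protein-coupled receptor, rose by 2.54 and 3.87 on the log2 scale. Cyp4a10, a fatty acid hydroxylase, rose by 3.42 in the kinase-dead line and from 3 to 31 counts over the null libraries, a ratio of 10.9 (exact 95% counting interval 3.40 to 55.7). Sp100, a nuclear body protein, went from 3 to 231 counts over the kinase-dead libraries, a ratio of 81.5 (27.5 to 398), and from 5 to 117 counts in the null line, a log2 fold change of 4.54. Such intervals cover counting error only.

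Enterocyte genes rose in both lines, 15 of 30 in the kinase-dead line (median 0.69) and 11 in the null line (median 0.29), 7 of them in both, where 6.11% and 8.47% of all genes rose. Differences were called higher in 9 and lower in 2, against 4.9% and 6.25% of all genes. Lct, lactase, rose from 16.4, 34.0 and 34.4 to 137, 230.0 and 208 CPM in the kinase-dead line. In the null line Lct read 7.08, 10.9 and 10.7 CPM with EtOH and 3.81, 7.91 and 8.28 CPM with 4-OHT, and the arms overlapped. The difference was 3.28 (95% interval 2.02 to 4.54, edgeR adjusted p = 0.00418). Slc2a5, the fructose transporter, was the reverse in that the null line moved, from 494, 359 and 291 to 144, 107 and 99.5 CPM, while the kinase-dead line read 444, 248 and 257 CPM with EtOH and 481, 411 and 436 CPM with 4-OHT. Its difference was not called with the null response of day 10 (0.98, edgeR adjusted p = 0.111). Slc2a2, another sugar transporter, was the other enterocyte gene that fell in the null line (-1.03). The negative differences were of the brush border peptidases Mep1a and Ace, which rose in both lines but more in the null line. Mep1a had log2 fold changes of 0.99 and 2.37 and Ace of 0.92 and 2.11, and these differences were called in 9 and 5 of 12 fits without 1 library. Before deletion, 18 of the 30 enterocyte genes and 6 of 9 markers of the proximal small intestine were already higher in the kinase-dead line, against 16.2% of all genes, and the part of this in the result was not tested.

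Genes of lipid uptake and chylomicron assembly rose in 13 of 25 in the kinase-dead line (median 0.64) and in 6 in the null line (median 0.32), against 6.11% and 8.47% of all genes. All 6 called differences were positive, where 4.9% of all genes were called higher, of Abca1, of the fatty acid binding protein Fabp1, of Dgat2, which makes triglycerides, and of the apolipoproteins Apoa1, Apoc3 and Apoa4. Abca1, the cholesterol exporter, rose from 4.34, 2.12 and 2.37 to 37.1, 25.3 and 22.3 CPM in the kinase-dead line and fell from 0.639, 1.49 and 0.886 to 0.106, 0.0504 and 0.153 CPM in the null line. No library of an arm overlapped the other arm in either line, the difference was 6.49 (95% interval 4.97 to 8.02, edgeR adjusted p = 6.71e-05), and it was called in each of 12 fits without 1 library. Apoa4 rose from 1012, 809.6 and 828 to 2194, 2907 and 3080.0 CPM in the kinase-dead line and read 1589, 1305 and 1070.0 CPM with EtOH and 1410.0, 1257 and 1693 CPM with 4-OHT in the null line. Cd36, a fatty acid transporter, rose in both lines, by 1.91 and 2.42 on the log2 scale. Angptl4, a lipoprotein lipase inhibitor that PPAR factors induce, rose from 0.241, 0.327 and 0.127 to 2.32, 3.60 and 4.83 CPM in the kinase-dead line and read 0.393, 0.431 and 0.246 CPM with EtOH and 0.847, 0.403 and 0.102 CPM with 4-OHT in the null line. Cytochrome P450 genes rose in 7 of 23 in the kinase-dead line and in 10 in the null line, against 6.11% and 8.47% of all genes. In the null line 2 fell, against 8.48% of all genes. Differences were called higher in 2 and lower in 3 (Cyp4b1, Cyp4v3 and Cyp2c68), against 4.9% and 6.25% of all genes. Of the former, Cyp3a11 rose by 1.17 in the kinase-dead line and had -0.41 in the null line, and Cyp2b10 was called in opposite directions, at 1.09 and -0.79. Cyp4v3 rose in both lines and more in the null line, by 0.87 and 1.79.

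**Figure D3:**
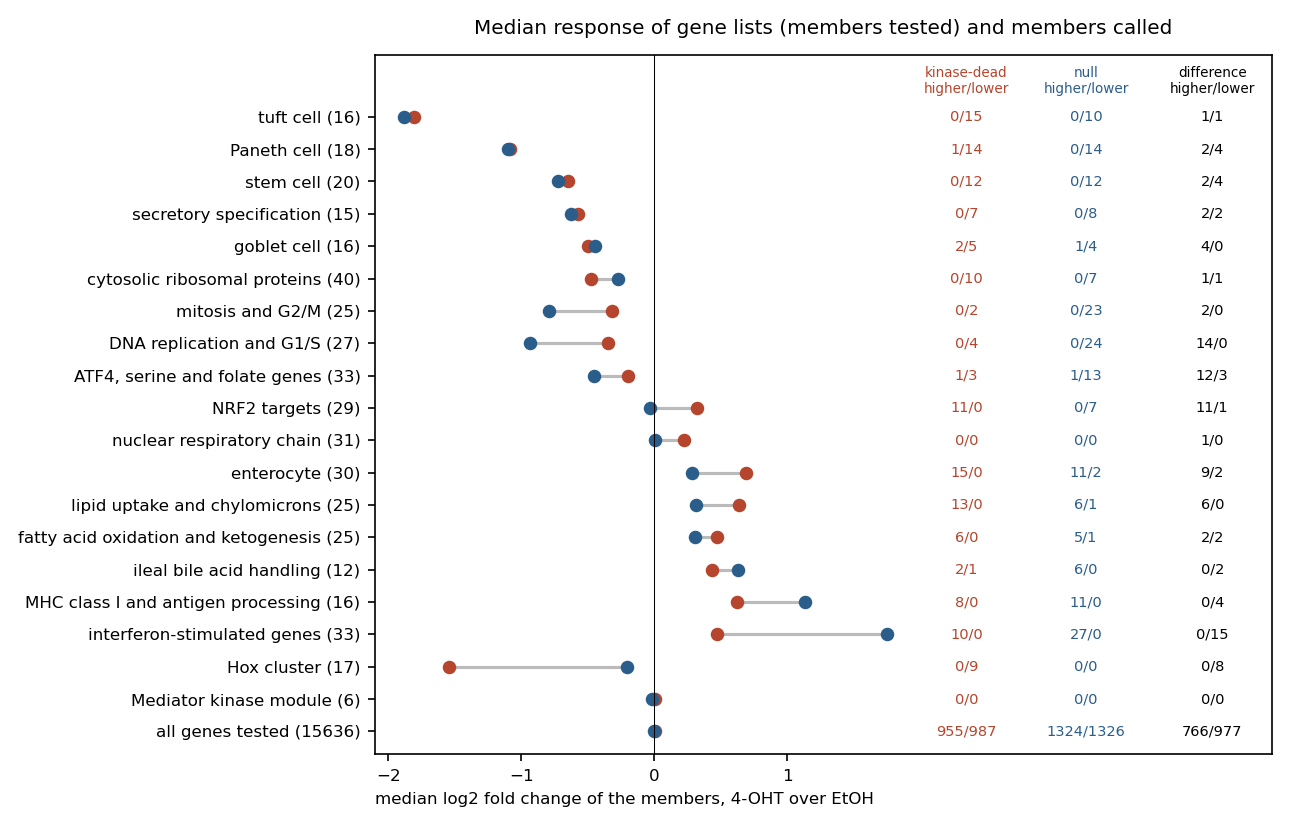
Median log2 fold change of 4-OHT over EtOH (horizontal axis) of the measured members of each gene list in the kinase-dead line (red) and the null line (blue), with the members called higher and lower in each response and in the difference at the right. The medians nearly coincide for tuft and Paneth cell genes and lie apart for interferon-stimulated genes (0.47 and 1.75), DNA replication genes (-0.35 and -0.94) and Hox genes (-1.55 and -0.20).

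Interferon-stimulated genes, which encode antiviral sensors and effectors and answer to interferon through STAT and IRF factors, rose more in the null line. Of 33 measured, 27 rose in the null line and 10 in the kinase-dead line, with medians of 1.75 and 0.47, where 8.47% and 6.11% of all genes rose. The difference was called lower in the kinase-dead line in 15 of 33, against 6.25% of all genes, and in 14 to 17 of them without any 1 library. Oas3, a sensor of double-stranded RNA, rose in the null line from 0.0983, 0.479 and 0.246 to 4.45, 8.41 and 5.11 CPM. In the kinase-dead line it read 0.103, 0.457 and 0.285 CPM with EtOH and 0.341, 0.682 and 0.284 CPM with 4-OHT. The arms overlapped there, and the difference was -3.77 (95% interval -5.39 to -2.16, edgeR adjusted p = 0.00289). Irf7, the factor that amplifies the interferon response, chosen here after its values were seen, rose in the null line from 19.5, 18.3 and 18.6 to 61.8, 72.5 and 63.4 CPM and read 14.0, 16.6 and 16.4 CPM with EtOH and 16.4, 19.2 and 18.1 CPM with 4-OHT in the kinase-dead line. Xaf1, an interferon-inducible regulator of apoptosis, and Oasl2, an antiviral protein, rose in both lines and more in the null line, with log2 fold changes of 1.41 and 2.41 in the kinase-dead line and of 4.88 and 4.27 in the null line. Rtp4 rose in both as well, by 1.77 and 3.54, and its difference missed the threshold (edgeR adjusted p = 0.0514). Trim30a, Igtp, Oas1a and Cmpk2 were called higher in both responses, with differences of -0.19, -0.41, -0.20 and 0.07 that were not called. Of the 10 members called higher in both, 0 had a 95% interval of the difference within 1.5-fold either way, so equal rises were not shown for any of them. The summed level of the list was 278 to 320.4 CPM in kinase-dead EtOH and 209 to 219.8 CPM in null EtOH libraries, and 389 to 426 and 505 to 608 CPM with 4-OHT. The summed immune cell markers were 5.49 to 6.89 and 6.42 to 7.38 CPM with EtOH and 8.22 to 9.45 and 8.15 to 11.4 CPM with 4-OHT, and their part in this result was not tested.

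Promoter sequence is shown for members of this list whose difference was called, because such genes share a known response element. The core of the interferon-stimulated response element was searched as GAAANNGAAA, which reads TTTCNNTTTC on the other strand and overlaps the sites of IRF factors, in the 250 bases before each start in RefSeq promoters of GRCm38.p6. It occurred in 978 of 32851 promoters (2.98%), in those of 323 of 10568 tested genes (3.06%) and in those of 13 of the 24 interferon-stimulated genes with a promoter in the table (54.17%). Of the 11 called in the difference that had a promoter, 5 held it. Stretches around the match are printed 5′ to 3′ on the strand of the gene, with the match in capitals, for Oas3 (chr5:120777685-120777774, minus strand), Stat2 (chr10:128270248-128270325, plus), Rsad2 (chr12:26456523-26456612, minus), Ifit3 (chr19:34583367-34583456, plus) and 1 of 2 promoters of Ifit1bl1 (chr19:34602023-34602112, minus).
Oas3: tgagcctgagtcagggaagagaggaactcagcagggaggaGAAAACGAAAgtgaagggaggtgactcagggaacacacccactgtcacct
Stat2: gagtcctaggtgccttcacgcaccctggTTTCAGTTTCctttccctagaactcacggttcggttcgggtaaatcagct
Rsad2: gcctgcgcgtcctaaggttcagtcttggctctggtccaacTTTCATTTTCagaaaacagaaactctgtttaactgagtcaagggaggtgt
Ifit3: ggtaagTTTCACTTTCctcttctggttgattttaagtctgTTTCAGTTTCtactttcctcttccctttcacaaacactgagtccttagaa
Ifit1bl1: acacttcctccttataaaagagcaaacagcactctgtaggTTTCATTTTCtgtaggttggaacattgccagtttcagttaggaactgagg
A match describes letters and not a bound site. The null log2 fold changes of these genes, in the order printed, were 4.42, 0.71, 3.01, 3.37 and 2.98, and the kinase-dead ones 0.64, 0.04, -0.31, 0.48 and 1.35. Stat2, a subunit of the factor that binds this element, itself rose in the null line from 27.3, 30.2 and 24.2 to 40.1, 49.3 and 44.5 CPM and read 26.1, 33.2 and 31.4 CPM with EtOH and 28.8, 33.0 and 31.2 CPM with 4-OHT in the kinase-dead line. Reads of the Ifit family can be split between near-identical copies.

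Genes of MHC class I presentation, which interferon also induces, rose in both lines. Of 16 measured, 8 rose in the kinase-dead line (median 0.62) and 11 in the null line (median 1.13), 6 of them in both, against rises in 6.11% and 8.47% of all genes. H2-D1, a class I heavy chain, had log2 fold changes of 0.71 and 0.73, and B2m, the light chain, of 0.76 and 0.92, with both differences within 1.5-fold. The 4 called differences, of Psmb9, Tap1, Tap2 and H2-T23, were all negative, where 6.25% of all genes were called lower. Tap1, a subunit of the peptide transporter, rose from 5.65, 5.61 and 4.28 to 13.5, 13.9 and 12.8 CPM in the null line and read 8.68, 9.70 and 10.7 CPM with EtOH and 11.8, 13.5 and 13.8 CPM with 4-OHT in the kinase-dead line. H2-T23, a nonclassical class I gene, had log2 fold changes of 0.04 and 1.23.

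Replication genes fell more in the null line, and mitosis genes fell there without a difference that was called for most members. Of 27 genes of DNA replication and the G1/S transition, 24 fell in the null line and 4 in the kinase-dead line, with medians of -0.94 and -0.35. Of 25 mitotic genes, 23 fell in the null line and 2 in the kinase-dead line (Mki67 and Kif11), with medians of -0.79 and -0.31. Over all genes 8.48% fell in the null line and 6.31% in the kinase-dead line, and the share of mitotic genes that fell in the latter was near this. E2f1, a driver of S phase entry, fell in both lines, from 10.8, 12.9 and 12.3 to 6.58, 7.44 and 7.87 CPM in the kinase-dead line and from 29.5, 27.6 and 29.2 to 11.4, 11.5 and 18.6 CPM in the null line. Ung, uracil glycosylase, Orc6 and Pola1, which encodes the polymerase alpha subunit, were the others called in both, and Ung had log2 fold changes of -0.69 and -0.78. Orc1, an origin recognition subunit, fell in the null line from 7.13, 7.62 and 8.81 to 2.17, 3.47 and 4.24 CPM and read 5.82, 5.16 and 4.81 CPM with EtOH and 4.54, 4.00 and 3.94 CPM with 4-OHT in the kinase-dead line. Null 4-OHT replicate 3 was the highest of its group for E2f1, Orc1, Aurka and Kif11. A higher difference was called in 14 of the 27 replication genes and in 2 of the 25 mitotic genes (Aurka and Plk1), against 4.9% of all genes. The replication count rested on single libraries. It was 3 without null 4-OHT replicate 1, 4 without null EtOH replicate 3, 5 without null 4-OHT replicate 2, 20 without null 4-OHT replicate 3 and 6 to 10 without any 1 of the other 8 libraries, and it was 6 with upper quartile normalization. The mitotic count was 15 without null 4-OHT replicate 3, 0 to 3 without any 1 of the other libraries, 0 with upper quartile normalization and 5 with a replicate block in the null line. The median difference stayed above 0 in all of these fits, between 0.44 and 0.79 for replication and between 0.33 and 0.71 for mitosis without 1 library.

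NRF2 targets, which serve glutathione synthesis, conjugation and NADPH supply, rose in 11 of 29 in the kinase-dead line and fell in 7 of 29 in the null line. Over all genes 6.11% rose in the former and 8.48% fell in the latter. The medians of the list were 0.32 and -0.03. The difference was called higher in 11 of 29, against 4.9% of all genes, and in 10 to 12 without any 1 library. It was called lower in 1 (Gsta4), against 6.25% of all genes. Gstm1, a glutathione transferase, rose from 733, 882 and 867 to 2429, 2455 and 2619 CPM in the kinase-dead line and fell from 855, 889 and 975 to 542, 537 and 524 CPM in the null line. The arms did not overlap in either line, and the difference was 2.36 (95% interval 2.12 to 2.59, edgeR adjusted p = 1.11e-09). Me1, malic enzyme, rose from 42.4, 35.8 and 32.9 to 134, 98.5 and 100.5 CPM in the kinase-dead line and fell from 51.1, 38.6 and 37.6 to 26.2, 24.2 and 29.2 CPM in the null line. Gclc, the catalytic subunit of glutathione synthesis, had log2 fold changes of 0.86 and -0.74, and with Gstm3 these were the 4 members called in opposite directions. Reads of the Gstm genes can be split between near-identical copies. Nqo1, a quinone reductase, rose by 0.69 in the kinase-dead line and had -0.42 in the null line, while Hmox1, heme oxygenase, fell in the null line (-1.5) and had -0.31 in the kinase-dead line. The antioxidant response element core TGACNNNGC, whose first letters it shares with AP-1 sites, was searched on both strands in the same windows and occurred in 10.16% of all promoters, 13.85% of tested genes, 24.0% of the 25 NRF2 targets with a promoter and 1 of the 9 called in the difference.

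Genes of the ATF4 response and of serine and folate metabolism fell in 13 of 33 in the null line and in 3 in the kinase-dead line (Fgf15, Slc7a5 and Vldlr), while Aldh1l1 rose in the former and Cth in the latter, with medians of -0.45 and -0.20, where 8.48% and 6.31% of all genes fell. Differences were called higher in 12 and lower in 3 (Aldh1l1, Fgf15 and Vldlr), against 4.9% and 6.25% of all genes, and only the former share stood well above its background. Psat1 and Phgdh, enzymes of serine synthesis, fell in the null line, with log2 fold changes of -1.61 and -1.59 there and of -0.45 and -0.35 in the kinase-dead line. Aldh1l2, a mitochondrial folate enzyme, fell from 2.16, 4.27 and 4.23 to 0.265, 0.604 and 1.48 CPM in the null line and read 1.89, 1.47 and 1.65 CPM with EtOH and 2.63, 2.29 and 1.99 CPM with 4-OHT in the kinase-dead line. Fgf15, the ileal hormone that represses bile acid synthesis, fell in the kinase-dead line from 15.6, 18.8 and 16.0 to 1.43, 1.33 and 1.26 CPM. In the null line Fgf15 read 7.03, 8.39 and 9.30 CPM with EtOH and 8.57, 8.21 and 4.70 CPM with 4-OHT, so the arms overlapped there, and the difference was -3.43 (edgeR adjusted p = 9.16e-07). Of 12 ileal bile acid genes, 2 rose in the kinase-dead line and 6 in the null line, against 6.11% and 8.47% of all genes, and Fgf15 and Slc51a had differences called lower. Slc51a, an export subunit, had log2 fold changes of 0.38 and 1.00. Slc10a2, the uptake transporter, and Slc51b, the other export subunit, rose in both lines, with log2 fold changes of 1.22 and 1.01 in the kinase-dead line and of 1.79 and 1.29 in the null line.

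**Figure D4:**
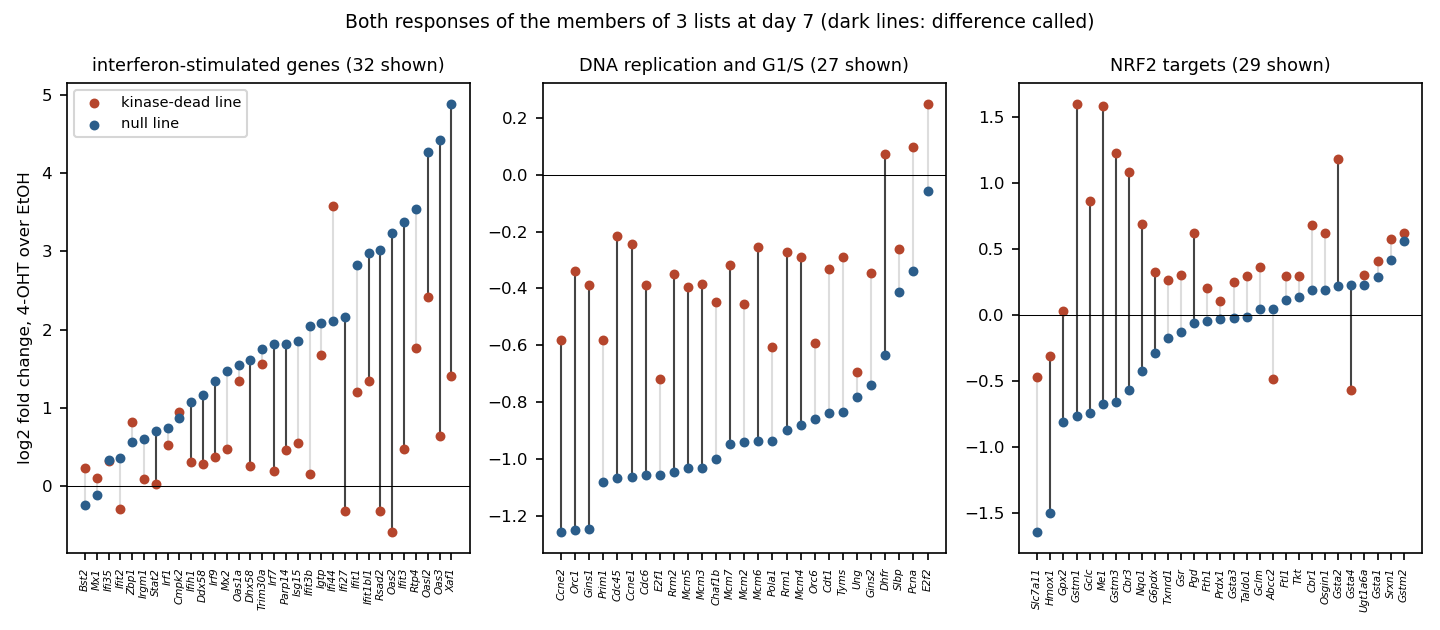
Log2 fold change of 4-OHT over EtOH (vertical axis) of measured members of 3 lists in the kinase-dead line (red) and the null line (blue), ordered by the null value, with dark lines where the difference was called. Interferon-stimulated genes lie mostly higher in the null line, most replication genes lie lower in the null line, and Gclc, Gstm1, Me1 and Gstm3 lie above 0 in the kinase-dead line and below 0 in the null line.

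Hox genes, which specify position along the body axis, fell in 9 of 17 in the kinase-dead line and in 0 in the null line, against 6.31% and 8.48% of all genes, with medians of -1.55 and -0.20. In the null line 5 were lower at an unadjusted p under 0.05 in edgeR, and DESeq2 and limma-voom each called 1. Over all 15636 genes tested, 6060 were under 0.05 in that response even after adjustment, in either direction. The difference was called lower in 8 of 17 and in 6 to 8 without any 1 library, against 6.25% of all genes. Some markers of gut region moved in both lines. Of 9 proximal markers 2 rose in the kinase-dead line (Lct and Cyp2b10), the list's summed level going from 871 to 906 CPM with EtOH to 1300.0 to 1592 CPM with 4-OHT. Of 8 distal markers 3 fell there (Guca2a, Muc3a and Fgf15) and 1 rose (Slc10a2), with summed levels of 358 to 467 and 278 to 378 CPM. Among null calls, 0 proximal markers rose and 1 fell, and 2 distal markers rose and 1 fell. Called with the same sign in both lines were 2 distal markers. Over all genes 6.11% rose and 6.31% fell in the kinase-dead line, and 8.47% and 8.48% in the null line. In the null line the summed levels were 855 to 986 and 747 to 787 CPM for proximal and 562 to 678 and 597 to 650.2 CPM for distal markers, and the part of this in the Hox result was not tested. Hoxa9 fell from 7.06, 5.55 and 5.60 to 0.102, 0.0310 and 0 CPM in the kinase-dead line and read 1.72, 2.25 and 1.82 CPM with EtOH and 1.48, 0.604 and 1.28 CPM with 4-OHT in the null line. Hoxa10 fell from 4.06, 4.05 and 3.70 to 0.0682, 0.0620 and 0.0406 CPM in the kinase-dead line and read 2.65, 3.07 and 4.82 CPM with EtOH and 1.64, 2.42 and 3.99 CPM with 4-OHT in the null line. Hoxd8, of another cluster, fell from 2.48, 3.20 and 3.51 to 0.0682, 0.0310 and 0.0406 CPM in the kinase-dead line and read 14.2, 15.0 and 17.9 CPM with EtOH and 16.9, 16.6 and 17.2 CPM with 4-OHT in the null line. All 3 were near 0 with 4-OHT in every kinase-dead library, and their differences were -6.10, -5.58 and -6.01 (edgeR adjusted p of 6.81e-06, 1.03e-05 and 1.72e-08). The fall did not extend to every member, and Hoxa2, Hoxa3 and Hoxa4 had kinase-dead log2 fold changes of -0.49, -0.40 and -0.08. At most 3 counts were found in each arm of the kinase-dead line for 3 of the 17 genes and of the null line for 1. The starting levels differed, with 10 of the 17 lower and 3 higher in kinase-dead than in null EtOH organoids, against 15.2% and 16.2% of all genes. Their summed EtOH levels were 39.2 to 41.3 CPM in the kinase-dead line and 101.5 to 115.2 CPM in the null line. Hox clusters hold antisense genes, and the strand setting of the counting is not given in the sources used here, so reads of both strands cannot be told apart.

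NF-kB targets and chemokines had called differences of both signs. Of 19 measured, 3 rose in the kinase-dead line (Duox2, Il18 and Nos2) and 6 in the null line, against 6.11% and 8.47% of all genes, with medians of 0.33 and 0.58, and Duox2, an oxidase of the epithelial surface, rose in both (1.89 and 0.96). The difference was called higher for Il18 and for Nos2, the inducible nitric oxide synthase, and lower for Il1rn, Relb, Tnfaip3, Cxcl16 and Nfkb2, against 4.9% and 6.25% of all genes. Il1rn, which encodes the interleukin 1 receptor antagonist, rose in the null line from 15.7, 16.4 and 22.3 to 39.1, 49.1 and 42.8 CPM and read 6.47, 10.0 and 9.08 CPM with EtOH and 5.76, 9.73 and 10.4 CPM with 4-OHT in the kinase-dead line. Retinoid genes also had both, with differences called higher in 4 of 20 (Adh7, Adh4, Rbp7 and Aldh1a1) and lower in 3 (Dhrs9, Cyp26b1 and Rarg), against the same shares. Adh4, an alcohol dehydrogenase, had log2 fold changes of -0.09 and -2.28. Cytosolic ribosomal protein genes fell in 10 of 40 in the kinase-dead line and 7 in the null line, Rpl5 and Rpl13a in both, against 6.31% and 8.48% of all genes, with medians of -0.48 and -0.28 and called differences for Rpl27 (0.72) and Rps14 (-0.75), a smaller share in either direction than over all genes. Of the subunits of core Mediator and of the SWI/SNF chromatin remodeller, a smaller share was called in either direction than over all genes. Over all genes 6.11% rose and 6.31% fell in the kinase-dead line, and 8.47% and 8.48% in the null line. The difference was called higher in 4.9% and lower in 6.25%. Of 25 core Mediator genes, Med14 alone was called, in the null response (-0.66), and the difference was called in none by edgeR, DESeq2 or limma-voom, with 6 at an unadjusted p under 0.05. Of 24 SWI/SNF genes, Bcl7a was called in the kinase-dead response (-0.63) and Actl6a in the difference (0.59). In the null response edgeR, DESeq2 and limma-voom called no SWI/SNF gene, while 13 were lower and 2 higher at an unadjusted p under 0.05 in edgeR (median -0.22), and in the difference 7 were higher and 4 lower at that p. Over all 15636 genes, 5189 were under that p in the difference, in either direction. In the null response 6060 of all genes were under 0.05 even after adjustment.

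Some genes outside the lists went from near absence to expression in the kinase-dead line. Rec8, a meiotic cohesin subunit (ENSMUSG00000002324.8, chromosome 14, 55618037 to 55625395), rose from 0.207, 0.131 and 0.317 to 44.6, 35.2 and 38.0 CPM in the kinase-dead line. It read 42.8, 36.1 and 28.4 CPM with EtOH and 42.4, 36.2 and 38.5 CPM with 4-OHT in the null line. The kinase-dead organoids thus reached with 4-OHT the level that null organoids had in both arms, and the difference was 7.33 (95% interval 6.72 to 7.94, edgeR adjusted p = 7.85e-10). In the kinase-dead line, 7 named genes went from at most 3 counts over the EtOH libraries to an average of at least 50 per library with 4-OHT, none did the reverse, and none did either in the null line; this set was chosen after the values were seen. Besides Sp100 they were Tspan6, Amigo2, Casd1, Gas6, Mxra7 and Zfp182. Tspan6 and Amigo2 had 0 counts with EtOH and 290 and 252 with 4-OHT, at least 102-fold and at least 88.9-fold higher. Casd1, a sialic acid acetyltransferase, went from 1 to 782 counts, a ratio of 828 (exact 95% counting interval 148 to 32730.0), and Gas6, a ligand of TAM receptors, from 2 to 1051, a ratio of 556 (154 to 4598). Mxra7 went from 1 to 315 and Zfp182 from 2 to 232 counts. In the null line these genes other than Gas6 and Sp100 had at most 3 counts in each arm, so their response there cannot be read. The differences of Tspan6, Amigo2, Casd1, Mxra7 and the imprinted gene Peg3 were no longer called without null EtOH replicate 2, with adjusted p-values of 0.953 (edgeR) for Peg3 and higher for the other 4, and that of Nid1, a basement membrane gene, was 4.52 and became -0.81 without it. All 12 null EtOH counts of Peg3 and all 12 of Nid1 were in that library, and the difference of Nid1 was called in 4 of 12 fits without 1 library. Gckr, the regulator of glucokinase, was also among the 12 largest positive differences (4.33), and read 0.413, 0.555 and 0.380 CPM with EtOH and 2.01, 1.74 and 2.19 CPM with 4-OHT in the kinase-dead line and 0.147, 0.0479 and 0.0984 and 0, 0 and 0.0511 CPM in the null line.

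Large negative differences were of genes that fell in the kinase-dead line or rose in the null line. Sox21, a transcription factor, fell from 4.41, 4.67 and 5.38 to 0.0682, 0.341 and 0 CPM in the kinase-dead line and read 5.90, 6.71 and 8.07 CPM with EtOH and 5.93, 6.34 and 6.29 CPM with 4-OHT in the null line. Sprr2a2, a cornified envelope gene with near-identical copies, fell from 7.09, 13.7 and 11.2 to 0.239, 0.186 and 0.325 CPM and read 5.06, 7.05 and 4.92 CPM with EtOH and 6.09, 8.61 and 8.18 CPM with 4-OHT in the null line. The null arms overlapped for both genes. Pcdhb17, a protocadherin, fell in the kinase-dead line (-3.14) and rose in the null line (0.97). Sh3tc2 fell from 5.82, 7.28 and 6.39 to 0.0682, 0.186 and 0.162 CPM, with at most 0.212 CPM in any null library, and its difference of -4.76 was not called without null 4-OHT replicate 1 (-3.19). Ifi27l2a, an interferon-inducible gene, rose in the null line from 0.147, 0.144 and 0.295 to 2.80, 3.78 and 2.81 CPM and had at most 0.158 CPM in the kinase-dead line. Vnn1, pantetheinase, went from 0 to 22 counts over the null libraries, at least 7.74-fold higher, and Adgrf5, an adhesion receptor, from 1 to 12, a ratio of 12.7 (exact 95% counting interval 1.87 to 541). In the kinase-dead line these genes had log2 fold changes of 0.52 and -0.76 that were not called.

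Besides Abca1 and Tph1, the opposite calls with large differences included Nox1, Ppp1r3g and Tlr4. Nox1, an NADPH oxidase of gut epithelium, rose from 17.4, 6.11 and 5.67 to 43.6, 20.7 and 21.3 CPM in the kinase-dead line and fell from 28.8, 16.8 and 17.8 to 3.28, 2.92 and 3.99 CPM in the null line. Tlr4, the endotoxin receptor, fell from 0.758, 1.05 and 0.633 to 0.0682, 0.0310 and 0.0811 CPM in the kinase-dead line and rose from 6.44, 6.04 and 6.89 to 11.5, 10.3 and 10.8 CPM in the null line. The arms of Nox1 and Tlr4 did not overlap in either line, and the differences were 4.19 and -4.45. Ppp1r3g, a glycogen-targeting phosphatase subunit, rose by 2.16 on the log2 scale in the kinase-dead line and went from 11 to 1 counts over the null libraries. Rarg, a retinoic acid receptor, fell from 12.3, 13.5 and 13.1 to 2.93, 4.15 and 5.07 CPM in the kinase-dead line and rose from 22.8, 24.4 and 23.3 to 38.2, 43.9 and 40.7 CPM in the null line, a difference of -2.49 (edgeR adjusted p = 3.00e-07).

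The null line was also sampled at days 3, 5 and 10, so the kinase-dead response at day 7 can be set against other stages of the null response. Over the 14902 genes tested both here and in a fit of the 24 null libraries of the time course, its correlation with the null response was 0.055 at day 3, 0.189 at day 5, 0.325 at day 7 and 0.416 at day 10, as a description across genes. The 746 of these genes that rose in the kinase-dead line had null medians of 0.08, 0.28, 0.49 and 0.64 at the 4 days, and the 912 that fell had -0.04, -0.26, -0.35 and -0.46. Both sets thus moved further in the direction of the kinase-dead response from day 3 to day 10. Enterocyte genes had null medians of -1.23, 0.11, 0.28 and 0.58 against 0.69 in the kinase-dead line, NRF2 targets of 0.00, -0.26, -0.03 and 0.43 against 0.32, DNA replication genes of 0.34, -0.68, -0.94 and -0.50 against -0.35 and interferon-stimulated genes of 0.65, 1.10, 1.74 and 1.14 against 0.47. For these 4 lists, which were chosen after their values were seen, the null median at day 10 lay nearer to the kinase-dead median than that at day 7 did. This was so in 15 of the 39 lists with at least 10 genes tested, and in the other 24 the median at day 7 lay nearer. The latter included Paneth cell genes (0.16, -0.91, -1.10 and -1.34 against -1.09), tuft cell genes (-0.53, -1.62, -1.96 and -1.55 against -1.81), stem cell genes (0.36, -0.43, -0.73 and -0.78 against -0.65) and cytosolic ribosomal protein genes (-0.38, -0.35, -0.28 and -0.14 against -0.48). Of all 4 days, the nearest null median was that of day 3 in 5, day 5 in 9, day 7 in 14 and day 10 in 11 of the 39 lists. It was that of day 3 for interferon-stimulated genes and of day 10 for enterocyte, NRF2 and replication genes. Gstm1 had null log2 fold changes of -0.68, -1.02, -0.77 and 0.58 against 1.6 in the kinase-dead line, and Ang4 of 0.14, -0.92, -1.17 and -2.09 against -2.18. With the null response of day 10 in place of day 7, the difference was called lower in 4 of 31 interferon-stimulated genes in place of 15 of 33, higher in 5 NRF2 targets in place of 11 and lower in 7 of 13 Hox genes in place of 8 of 17, and higher in 0 replication genes in place of 14, with a median difference of 0.12 in place of 0.59. The numbers tested differ because fewer members of these lists passed the filter on low counts in that fit. With that of day 5 the replication count was 3. Of the 91 genes named by rule whose difference was called with day 7, 45 were not called with day 10 and 44 not with day 5. Those not called with day 10 included Lgr5, Ang4, Slc2a5, Neurog3, Oas3, Xaf1, Il1rn, Tap1 and Gclc, and those not called with day 5 Atoh1, Nox1, Xaf1, Il1rn, Tap1 and Gclc. Rec8, Hoxa9 and Lct stayed apart, with null log2 fold changes at day 10 of 0.75, -0.49 and -0.57 against 7.45, -6.89 and 2.76 in the kinase-dead line. The kinase-dead line was measured at day 7 only, and day and line cannot be told apart in this reading.

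**Figure D5:**
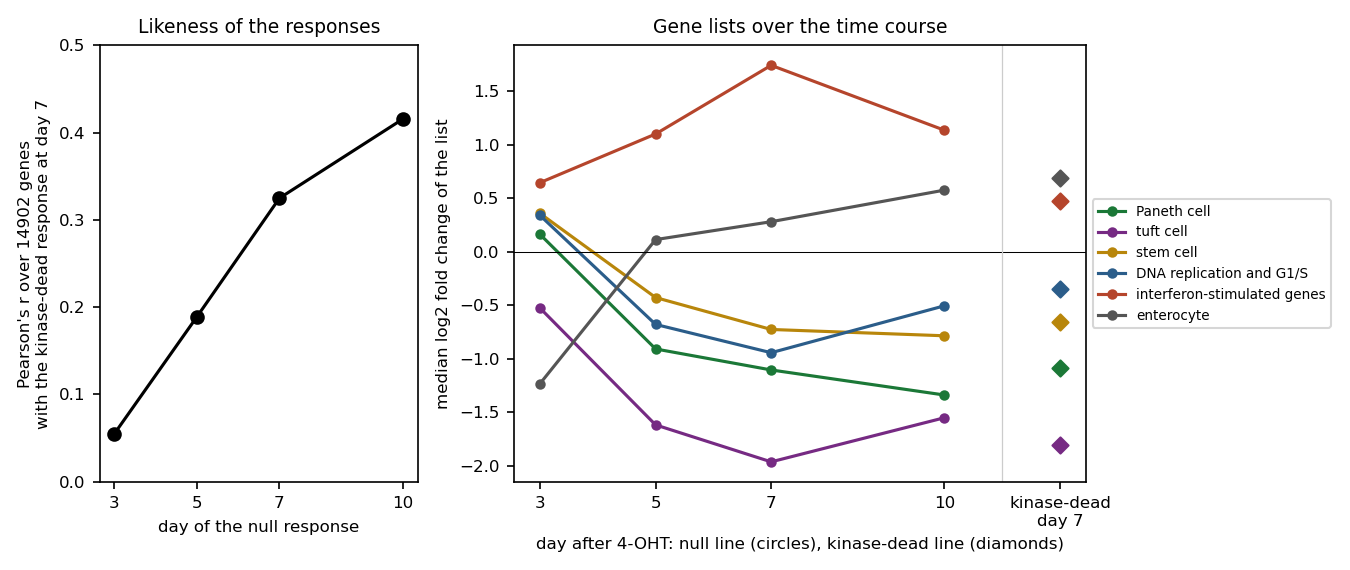
Left, Pearson's r over 14902 genes between the kinase-dead response at day 7 and the null response at days 3, 5, 7 and 10; right, median log2 fold change of 6 gene lists in the null line by day (circles) and in the kinase-dead line at day 7 (diamonds). The correlation is 0.055, 0.189, 0.325 and 0.416 at the 4 days, and the enterocyte median of the null line rises from -1.23 at day 3 to 0.58 at day 10, next to 0.69 in the kinase-dead line.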

How the data were processed

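RNA-Seq was measured in 12 libraries of small intestinal organoids. The authors deposited raw counts per gene, which the submitters' processing notes tie to STAR 2.5.2, featureCounts, Subread 1.6.3 and mm10. The strand setting is not given in the sources used here. The 2 count tables were joined by gene identifier (54752 genes), and 12 value columns of these tables, which are not among the libraries compared here and were not tied to samples, were not used. Columns of the kinase-dead line carry only the line number and E or T and were assigned to the EtOH and 4-OHT groups by elimination, so their replicate numbers are not tied to labels. Positions are those of GENCODE vM21 (53861 identifiers matched).

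Genes were filtered with filterByExpr, normalized by TMM and fitted over all 12 libraries as 4 groups with edgeR 4.0.16 (R 4.3.3, quasi-likelihood, robust), with Benjamini-Hochberg adjustment over 15636 genes and 8 residual degrees of freedom. The standard error is the absolute log2 fold change over the square root of F, and for a difference under 0.1 the larger of that and the combined errors of both responses. Values per library are CPM. A floor of 3 counts over the 3 libraries of a group was used for genes absent from an arm. Alternatives were DESeq2 1.42.0, limma-voom (limma 3.58.1), other normalizations and filters, each library left out, each line fitted alone, genes without chromosomes X and Y, a replicate block in the null line and, added after the data were seen, in the kinase-dead and in both lines, and the null response of other days (24 libraries, 15447 genes).

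Named genes averaged at least 50 counts in a group and were the 12 largest positive and negative called differences, the 8 largest shared rises and falls, the 6 opposite calls with the largest difference, up to 4 members of each list and the genes the study names. Other genes are members behind a list's count or background examples, and these were chosen after their values were seen. Some results that met this rule are not reported here. The samples and lists were chosen with earlier results of these data known.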

Additional observations from a re-analysis of the deposited data

Results flagged for a closer look

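The test of the difference between the lines was past the threshold in 1743 genes, and 96 genes were called in both responses with opposite signs. In 1688 of the 1743, all 4 groups had more than 3 counts over their libraries, in 55 at least 1 group did not, and in 6 of these neither arm of the null line did. The opposite calls with large differences included Abca1 (6.49), Nox1 (4.19), Ppp1r3g (5.21), Tlr4 (-4.45) and Tph1 (-6.78), as kinase-dead minus null log2 fold change. Of these, Abca1, Nox1 and Tlr4 had more than 3 counts in every group, while Ppp1r3g and Tph1 each had a null group with at most 1 count over its libraries.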

How the results depend on the processing

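At an adjusted p under 0.05 with no fold cutoff, 3148 genes differed in response, and tested against a fold of 1.5, 376 did, in place of 1743. Genes called in both with the same sign and in the difference numbered 61, and 101 with no filter on low counts. Without 1 library, the kinase-dead calls ranged from 1597 to 2021, the null calls from 2270 to 2853 and those of the difference from 1386 to 2041. The classes ranged likewise from 422 to 528 (both, not in the difference), 40 to 69 (both and in the difference, 40 without null 4-OHT replicate 2), 71 to 121 (opposite), 380 to 502 and 595 to 1055 (kinase-dead or null response alone and in the difference), 1985 to 2159 (1 response alone, not in the difference) and 117 to 154 (difference within 1.5-fold). DESeq2, limma-voom, other normalizations and filters kept the calls of both responses and of the difference within 1.5 times, as did each line fitted alone for its own response, with 1308 kinase-dead calls at 10 counts in every library and 2400 with no filter. No normalization, tool or filter moved the median of all genes by over 0.1 on the log2 scale. With the replicate block in the null line the null calls were 2671 and the difference calls 1826, and the deviations of equal numbers correlated at 0.09, 0.018 and 0.16 between arms, the EtOH library's own partner best in 2 of 3 pairs. In the kinase-dead line, whose numbers come from column names alone, the correlations were 0.372, 0.174 and 0.084, again with the own partner best in 2 of 3. In neither line did every pair pass 0.1, so the numbers were not taken to pair the samples. Blocks on these numbers, chosen after seeing the data, gave 2014 kinase-dead and 1919 difference calls with the block in the kinase-dead line. With the replicate block in both lines there were 2115 kinase-dead, 2811 null and 2118 difference calls, and 102 genes called in both with the same sign and in the difference. With the null response of day 5 the difference was called in 1797 genes, 33.2% of them higher against 43.9% at day 7, and with day 10 in 1274, 39.5% higher.

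Over genes named and settings, direction and side of the threshold were as reported in 97.4% of 4334 kinase-dead, 97.8% of 4479 null and 93.0% of 4743 difference values. The sign of the difference turned with the null response of day 5 for Insm1 (0.284), Orc1 (-0.049), Sh2d6 (-1.713), Ern2 (-0.637), Rdh7 (1.269), Prl2c3 (-3.3), Clu (-1.228), Olfm4 (-0.046), Slc51a (0.378), Msln (-4.822) and Tap1 (0.195). With day 10 it turned for Insm1 (1.789), Gins1 (-0.189), Orc1 (-0.232), Ephb2 (0.108), Oasl2 (0.589), Vnn1 (1.78), Hk1 (0.238), Rpl27 (-0.349), Olfm4 (-0.009) and Ndufa1 (-0.227). Without 1 library the kinase-dead response of Igfbp4 ranged from -2.012 (without kinase-dead 4-OHT replicate 3) to 1.572, and the difference of Nid1 from -0.807 (without null EtOH replicate 2) to 5.09. The cause of these turns was not tested.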
